A study of Mus musculus with 6 samples.

Results

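The genes described here encode the nucleus-encoded subunits of respiratory complexes II to V, the part of the mitochondrial energy chain that follows complex I. They were taken by symbol: Sdha to Sdhd for complex II, the Uqcr genes and Cyc1 for complex III, the Cox4 to Cox8 genes for complex IV and the Atp5 genes for complex V, without pseudogenes. A gene with several probes that name it alone is represented by the probe whose mean over the 6 arrays was highest. This gave 46 of the 22180 genes tested, of which 4 belong to complex II, 8 to complex III, 17 to complex IV and 17 to complex V. All 46 were kept, since no filter on low values was applied. Uqcr10 and Cox6c share their probes with another gene's symbol and were not analysed here.

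Affymetrix arrays were used to measure RNA of 6 mouse heart samples, with 1 array for each sample. All mice were of the same mixed strain, C57BL/6 x 129S6. The 3 control samples had the genotype Nkx2.5-Cre, a Cre recombinase active in cardiac progenitors and their descendants. The 3 transgenic samples had the genotype Nkx2.5-Cre; R26R-miR302-367, in which Cre also switches on the miR-302 and miR-367 cluster at Rosa26, so all 6 hearts carry Cre and no group lacks it. The source name and the harvest protocol give postnatal day 14, while the age field gives E14, and no label tells whether each sample is a different animal. The p-values therefore rest on the variation among these samples, which may be technical. All values are the log2 expression values that the authors deposited, 1 per probe and array, and all differences are transgenic minus control on that log2 scale.

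Array medians lay between 5.45 and 5.54, and the arrays correlated at 0.982 to 0.989 within groups and 0.974 to 0.983 between groups. The transgene was checked on the 5 microRNA genes of the cluster, of which Mir302c read 3.60, 3.53 and 2.98 in control hearts and 10.00, 9.97 and 9.97 in transgenic hearts. All 5 rose, by 2.99 to 6.61 (limma, largest adjusted p = 0.0002713). The summed signal of 10 cardiomyocyte markers was level between groups, at 16.00 to 16.01 in control and 15.98 to 16.01 in transgenic hearts, expressed as the log2 of the sum, in which the brightest probes weigh most. Of these 10 markers none was called lower and 1 higher, the natriuretic peptide gene Nppa, which rose by 1.196 (limma adjusted p = 0.003401). The sums of 10 endothelial markers (13.06 to 13.13 against 12.65 to 12.78, 6 of 10 called lower) and of 10 macrophage markers (10.63 to 10.84 against 9.97 to 10.18, 8 of 10 called lower) were lower in transgenic hearts. Of 10 fibroblast markers 1 was called lower and 1 higher, and of 3 erythroid markers none was called. The part of these cell types in the values below was not tested. In such bulk samples, fewer cells of a type and less RNA per cell cannot be told apart. Of the respiratory genes, 32 of 46 (69.6%) had their lowest control value in control 3, against 39.2% of all genes.

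The respiratory chain passes electrons from reduced coenzymes to oxygen and stores the energy as a proton gradient across the inner mitochondrial membrane. Complex II (succinate dehydrogenase) takes electrons from succinate to coenzyme Q, complex III (cytochrome bc1) passes them to cytochrome c, complex IV (cytochrome c oxidase, COX) passes them to oxygen, and complex V (ATP synthase) uses the gradient to make ATP. The heart depends on this chain for almost all of its ATP. A set of COX subunits exists as a muscle form, found in heart and skeletal muscle, and as a ubiquitous form, also called the liver form, which dominates before birth and in most other tissues. The pairs are Cox6a2 and Cox6a1, Cox7a1 and Cox7a2, and Cox8b and Cox8a, with the muscle form named first.

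RefSeq promoter windows of 300 bases, which lie mostly before a gene's start and run 50 bases past it, were matched by symbol to 35 of the 46 genes, in 38 windows. Both strands were searched for CCGGAAG, the core bound by ETS factors such as NRF2 (GABP), for GCGCATGCG, bound by NRF1, for AAGATGGCG, bound by YY1, and for AAGGTCA, bound by the ERR receptors, all of them factors known to act on respiratory genes. The ETS letters were in 34.2% of the respiratory windows and in 8.86% of all 32851 windows. The NRF1 letters were in 15.8% against 1.75%, the ERR letters in 13.2% against 4.72% and the YY1 letters in 5.26% against 1.40%. These matches are letters in a window, not shown binding sites.

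Windows of 3 isoform genes are printed because these genes stand on opposite sides of the result on complex IV: Cox6a1 and Cox8a, both ubiquitous forms, rose in transgenic hearts and Cox7a1, a muscle form, fell. Each is written 5′ to 3′ along the gene, with matches to the motifs in capitals.
Cox6a1, GRCm38.p6, chr5:115348909-115349208, minus strand: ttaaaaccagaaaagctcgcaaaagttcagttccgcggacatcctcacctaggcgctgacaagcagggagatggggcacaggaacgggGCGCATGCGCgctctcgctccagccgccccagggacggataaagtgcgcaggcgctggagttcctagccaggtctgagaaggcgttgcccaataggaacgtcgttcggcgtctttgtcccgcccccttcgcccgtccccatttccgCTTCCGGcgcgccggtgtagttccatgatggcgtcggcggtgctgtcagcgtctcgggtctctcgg
Cox8a, GRCm38.p6, chr19:7217567-7217866, minus strand: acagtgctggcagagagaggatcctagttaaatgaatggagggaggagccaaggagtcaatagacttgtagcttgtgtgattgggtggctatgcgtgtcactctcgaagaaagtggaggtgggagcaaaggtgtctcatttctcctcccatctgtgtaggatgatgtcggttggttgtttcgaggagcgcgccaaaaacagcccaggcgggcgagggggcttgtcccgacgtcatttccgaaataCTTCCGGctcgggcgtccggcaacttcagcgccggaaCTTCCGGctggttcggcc
Cox7a1, GRCm38.p6, chr7:30183921-30184220, plus strand: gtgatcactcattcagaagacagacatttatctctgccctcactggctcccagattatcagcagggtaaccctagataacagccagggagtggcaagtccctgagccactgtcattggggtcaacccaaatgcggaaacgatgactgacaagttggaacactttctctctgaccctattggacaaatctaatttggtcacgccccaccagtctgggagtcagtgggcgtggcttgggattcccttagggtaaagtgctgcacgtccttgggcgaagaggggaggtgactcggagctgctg
The Cox6a1 window holds the NRF1 letters on both strands, in matches that overlap and begin 162 and 161 bases before the start, and the ETS letters on the minus strand 16 bases before it. The Cox8a window holds the ETS letters 2 times, on the minus strand, 5 bases before and 32 bases after the start. The Cox7a1 window holds none of the motifs, and neither do the windows of Cox8b and Cox7a2. No window was matched to Cox6a2. Of the other called genes, Uqcrc1, which fell, has the NRF1 letters. Sdha and Uqcrfs1, which fell, and Atp5o and Cox7c, which rose, have none of the motifs. Whether the letters go with the direction was not tested.

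Respiratory genes of complexes II to V were split between both directions. Of the 46 genes, 4 fell (Uqcrc1, Uqcrfs1, Cox7a1 and Sdha) and 4 rose (Cox6a1, Atp5o, Cox7c and Cox8a) in transgenic hearts (limma with Benjamini-Hochberg adjustment over 22180 genes, adjusted p up to 0.05). Each count is 8.70% of the 46 genes, beside 5.76% of all genes called lower and 5.35% called higher, and 1 gene is 2.17% of the 46, so neither share stands far from the background. The median difference was -0.037, against -0.031 over all genes, with 25 genes below 0 and 21 above it. The range ran from -0.56 for Uqcrc1 to 0.48 for Cox6a1.

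Counting only whether the 3 control and 3 transgenic values overlapped, 14 genes (30.4%) lay wholly lower and 11 (23.9%) wholly higher in transgenic hearts. The background of all genes was 16.7% wholly lower and 14.2% wholly higher. Respiratory probes were bright, with a median percentile of 99.2 by mean signal, against 50 for all genes. No background of equally bright genes was drawn, so the part of brightness in these shares and those below was not tested. The other 21 respiratory genes overlapped between groups. With an intensity trend and robust variance estimation in the same limma fit, 10 respiratory genes were called lower and 7 higher (21.7% and 15.2%), against 7.16% and 7.12% of all genes. After a new quantile normalization 5 were called in each direction, against 8.07% lower and 4.61% higher of all genes, and with each array centred on its median 4 lower and 2 higher, against 6.55% and 4.03%. The genes that this pair of changes, trend and robust variance made together, added were Sdhb, Sdhc, Cyc1, Cox5a, Cox8b and Atp5a1 on the lower side and Atp5mpl, Cox7a2 and Cox7a2l on the higher side. The plot of the 46 differences by complex shows both directions side by side within complex IV and 3 of 4 genes below 0 in complex II.

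**Figure D1:**
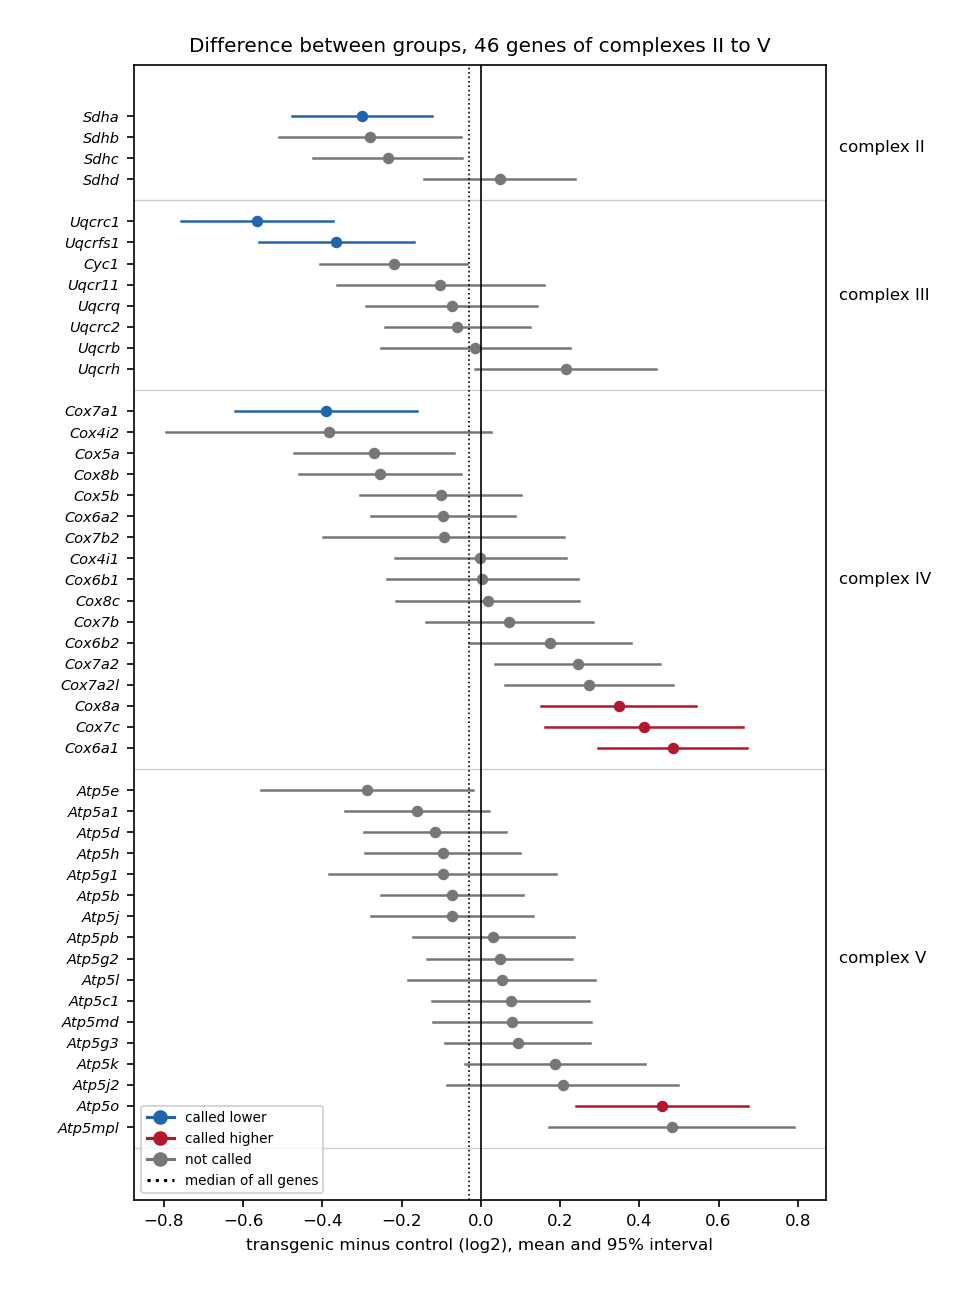
Difference between transgenic and control hearts (log2, x axis) for each of the 46 genes, grouped by complex; points are means of 3 minus 3 arrays, bars are 95% intervals of the limma fit and the dotted line is the median of all genes. Sdha, Uqcrc1, Uqcrfs1 and Cox7a1 are called lower, and Cox6a1, Cox7c, Cox8a and Atp5o higher.

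Of the 4 complex II genes, 1 fell and 3 lay wholly lower in transgenic hearts, with a median difference of -0.26. Over all genes 5.76% were called lower and 16.7% lay wholly lower, and 4 genes are too few to set a share against these. Sdha, the flavoprotein that oxidises succinate, read 11.85, 11.83 and 11.86 in control hearts and 11.55, 11.55 and 11.54 in transgenic hearts. The groups lay far apart relative to their own spread, with an SD of 0.015 in controls and 0.0074 in transgenic hearts (n = 3 each). Sdha fell by 0.30 ± 0.078 (SE, limma adjusted p = 0.04125), a 1.23-fold lower level, where the SE is larger than these SDs imply because limma draws each gene's variance towards that of all genes. Its call was lost when any 1 array was left out, with adjusted p of 0.1104, 0.07999 and 0.06826 without control 1, 2 and 3 and of 0.116, 0.1219 and 0.1106 without transgenic 1, 2 and 3.

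Sdhb, the iron-sulfur subunit that carries the electrons onward, read 10.40, 10.36 and 10.25 against 9.96, 9.99 and 10.22. The groups did not overlap, although transgenic 3 nearly reached control 3, and the difference of -0.28 ± 0.10 was not called (limma adjusted p = 0.1183). Sdhc, one of the membrane anchors that bind coenzyme Q, read 11.29, 11.24 and 11.14 against 10.99, 11.00 and 10.98, a difference of -0.24 ± 0.083 (limma adjusted p = 0.1118). Its groups were wholly apart. Sdhd, the other anchor, differed by 0.048 with overlapping groups (limma adjusted p = 0.7815), and the difference between the anchors was not tested. In the fit with an intensity trend and robust variance, Sdhb (adjusted p = 0.0399) and Sdhc (0.01602) were called lower too, which makes 3 of 4, where 7.16% of all genes were called lower.

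In complex III, 2 of 8 genes fell and none rose, with a median difference of -0.088, beside 5.76% and 5.35% of all genes. Uqcrc1, a core protein on the matrix side of the complex that belongs to the family of mitochondrial processing peptidases, read 12.52, 12.46 and 12.61 in control hearts and 11.91, 11.98 and 12.00 in transgenic hearts. The lowest control lay above the highest transgenic heart by more than the range within either group. Uqcrc1 fell by 0.56 ± 0.085 (SE, 95% interval -0.76 to -0.37, limma adjusted p = 0.004361), a 1.48-fold lower level and the lowest difference among the 46 genes. It stayed called under all 14 alternatives, with adjusted p between 6.153e-05 and 0.02514. Uqcrc2, the partner core protein, differed by -0.059 ± 0.081 with overlapping groups (limma adjusted p = 0.7138); the difference between the partners was not tested.

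Uqcrfs1, the Rieske iron-sulfur protein that takes electrons from coenzyme Q, read 9.16, 9.14 and 9.04 against 8.75, 8.68 and 8.81. The groups did not overlap, and Uqcrfs1 fell by 0.36 ± 0.086 (SE, limma adjusted p = 0.02878). Leaving out an array ended the call in 5 of 6 cases, with adjusted p of 0.09559 and 0.07181 without control 1 and 2 and of 0.09035, 0.1114 and 0.05732 without transgenic 1, 2 and 3. Cyc1, the cytochrome c1 that hands electrons to cytochrome c, read 12.62, 12.63 and 12.51 against 12.39, 12.36 and 12.36. Its groups were wholly apart too, but the difference of -0.22 ± 0.082 was not called (limma adjusted p = 0.1283; 0.009468 with the trend and robust variance).

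None of the 4 small accessory subunits of complex III was called. Uqcrh, the hinge protein that helps cytochrome c1 and cytochrome c meet, read 10.63, 10.62 and 10.41 against 10.88, 10.66 and 10.76. All transgenic values were above all control values, with a difference of 0.21 ± 0.10 (limma adjusted p = 0.2265). Uqcr11, Uqcrq and Uqcrb overlapped between groups, with differences of -0.10, -0.074 and -0.014.

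Complex IV held genes called in both directions. Of its 17 genes, 1 fell and 3 rose, 4 lay wholly lower and 6 wholly higher, and the median difference was 0.0033. All 3 muscle forms lay wholly lower and all 3 ubiquitous partners wholly higher in transgenic hearts, with 1 muscle form called lower and 2 ubiquitous forms called higher. Among all genes 16.7% lay wholly lower and 14.2% wholly higher, and 5.76% and 5.35% were called, and no test was made of these groups of 3. Cox6a lies where the enzyme's dimer meets, and Cox7a and Cox8 are small subunits that span the membrane.

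Cox6a1, the ubiquitous form, read 12.51, 12.56 and 12.56 in control hearts and 12.96, 13.04 and 13.09 in transgenic hearts. The groups were wholly apart, and Cox6a1 rose by 0.48 ± 0.083 (SE, 95% interval 0.30 to 0.67, limma adjusted p = 0.007782), a 1.40-fold higher level. It stayed called under all 14 alternatives, with adjusted p between 8.518e-05 and 0.0386. Cox6a2, its muscle partner, read 12.68, 12.69 and 12.67 against 12.58, 12.54 and 12.63. The values did not overlap, but the difference of -0.096 ± 0.080 was not called (limma adjusted p = 0.5143).

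Cox7a1, the muscle form, read 12.80, 12.90 and 12.61 in control hearts and 12.39, 12.30 and 12.45 in transgenic hearts. Control 3 lay closest to the transgenic values without reaching them. Cox7a1 fell by 0.39 ± 0.10 (SE, limma adjusted p = 0.04085), a 1.31-fold lower level. Here too only the fit without control 3 kept the call, with adjusted p of 0.1161 and 0.1046 when control 1 and 2 were left out and of 0.1133, 0.1406 and 0.07714 for transgenic 1, 2 and 3. Cox7a2, its ubiquitous partner, read 12.34, 12.26 and 12.12 against 12.55, 12.44 and 12.47. The groups were apart, with a difference of 0.24 ± 0.091 that was not called (limma adjusted p = 0.1302; 0.01953 with the trend and robust variance).

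Cox8a, the ubiquitous form, read 12.14, 12.21 and 12.28 in control hearts and 12.48, 12.58 and 12.60 in transgenic hearts. The groups did not overlap, and Cox8a rose by 0.35 ± 0.087 (SE, limma adjusted p = 0.03567), a 1.27-fold higher level. Of the fits with an array left out, that without control 3 kept the call, and adjusted p was 0.1169 and 0.07647 in those without control 1 and 2 and 0.07194, 0.1195 and 0.1106 in those without transgenic 1, 2 and 3. Centring each array on its median also ended the call (0.0581). Cox8b, the muscle partner, a gene that mice keep and humans have lost, read 13.00, 13.00 and 12.82 against 12.69, 12.64 and 12.73. The groups were apart, and the difference of -0.25 ± 0.090 was not called (limma adjusted p = 0.1124; 0.01176 with the trend and robust variance, and 0.04761 with array weights).

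The balance within each pair was followed as the muscle form minus the ubiquitous form on each array. These differences are between probes with their own brightness, so only their change between groups can be read, not which form is more abundant. For Cox6a2 minus Cox6a1 the arrays read 0.18, 0.12 and 0.11 in control hearts and -0.37, -0.50 and -0.46 in transgenic hearts. The mean went from 0.14 ± 0.036 to -0.44 ± 0.064 (SD, n = 3 each), a change of -0.58, which is a ratio 1.50-fold lower.

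For Cox7a1 minus Cox7a2 the arrays read 0.46, 0.63 and 0.49 against -0.16, -0.14 and -0.02. The mean went from 0.53 ± 0.093 to -0.11 ± 0.075 (SD, n = 3 each), a change of -0.64. For Cox8b minus Cox8a the arrays read 0.87, 0.80 and 0.54 against 0.21, 0.06 and 0.13, with means of 0.73 ± 0.17 and 0.13 ± 0.075 (SD, n = 3 each) and a change of -0.60. In all 3 pairs every transgenic array lay below every control array. This had to be so, since each muscle form lay wholly lower and each ubiquitous form wholly higher. The change in the mean was larger than either group's SD in each pair, while control 3 of the Cox8 pair lay about as far from control 1 as from the nearest transgenic array. The exact permutation test, two-sided, gave p = 0.1 for each pair (0.1 after adjustment over the 3 pairs), which is the smallest that 3 against 3 arrays can give, so this test cannot reach 0.05 with 6 arrays. The separation of the single genes fixed this p in advance, so it adds nothing to their values. The ratios were 1.50-fold, 1.55-fold and 1.52-fold lower, close to each other although the pairs differed in which partner passed the test of its own. The plot of the isoforms by array shows the shift in each pair.

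**Figure D2:**
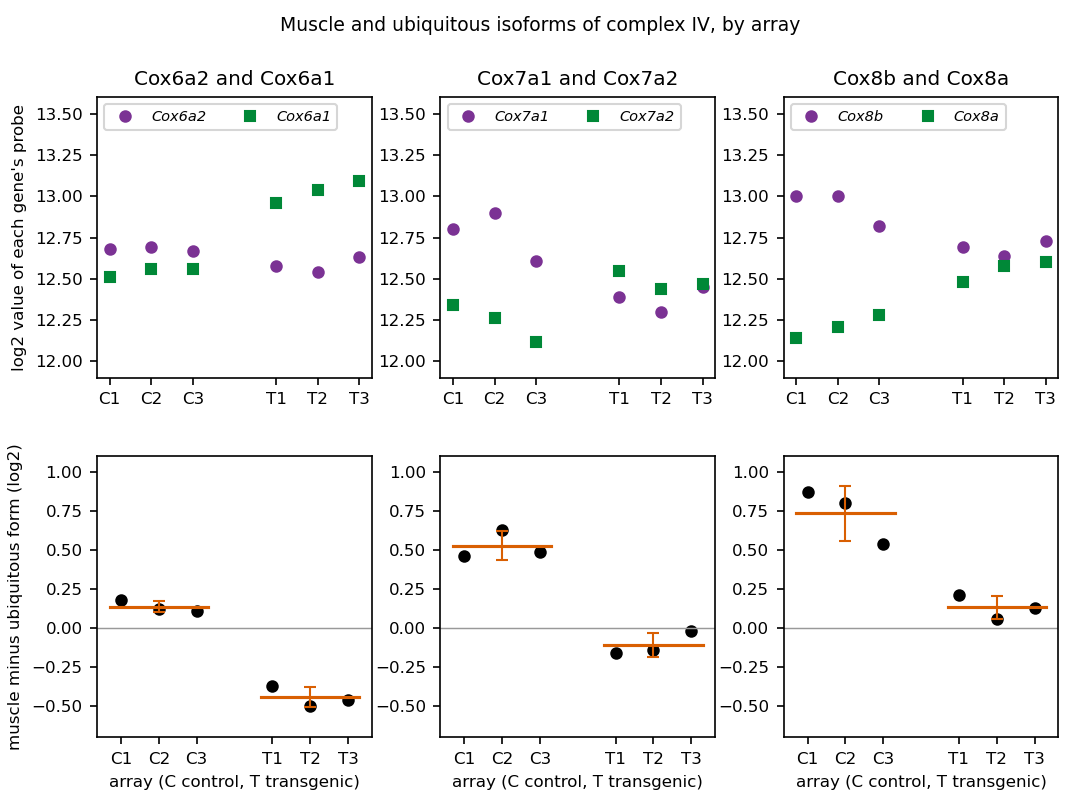
Top, log2 value of the muscle form (circles) and the ubiquitous form (squares) on each array; bottom, the muscle form minus the ubiquitous form (log2) on each array, with lines and bars for the group mean and SD (n = 3). In each pair the 3 transgenic arrays (T) lie below the 3 control arrays (C), by 0.58, 0.64 and 0.60 on average.

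The muscle forms of these subunits are also made in skeletal muscle and brown fat, so markers of both are given beside them. Of 10 skeletal muscle markers, none was called lower and 1 higher: Tnni2, the fast skeletal troponin I, rose by 0.83 (limma adjusted p = 0.000763), and the summed signal was 8.57 to 8.74 in control and 8.86 to 8.90 in transgenic hearts. Of 8 brown adipocyte markers measured, none was called, the sums were 12.83 to 12.96 against 12.71 to 12.84, and Ucp1, the defining marker, read 4.83, 4.83 and 4.69 against 4.71, 4.44 and 4.52. Cidea lay wholly lower, at -0.35, and was not called (limma adjusted p = 0.1088). The brightest probe weighs most in each sum, Tnni2 (means of 6.83 in control and 7.67 in transgenic hearts) and Fabp4 (12.49 and 12.44). Tnni2 was the only 1 of the skeletal muscle markers that lay wholly higher. The part of these markers in the isoform values was not tested.

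Outside the pairs, Cox7c, a small ubiquitous subunit with no muscle form, read 8.98, 8.93 and 8.65 in control hearts and 9.34, 9.17 and 9.29 in transgenic hearts. The groups were apart, with control 3 the farthest from the transgenic values, and Cox7c rose by 0.41 ± 0.11 (SE, limma adjusted p = 0.04505). Its call was lost with any 1 array left out, with adjusted p of 0.06159, 0.06634 and 0.0794 without control 1, 2 and 3 and of 0.1481, 0.0867 and 0.1228 without transgenic 1, 2 and 3, and with each array centred on its median (0.08506). Without control 3, 3 respiratory genes were called in each direction, with Sdha and Cox7c no longer among them. Each count is 6.52% of the respiratory genes, against 5.77% lower and 4.37% higher of all genes in that fit.

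Cox5a, which binds thyroid hormone metabolites and packs against Cox4, read 10.93, 10.87 and 10.75 against 10.59, 10.51 and 10.64. Its groups were apart, with a difference of -0.27 ± 0.089 that was not called (limma adjusted p = 0.09165). It was called lower after a new quantile normalization (adjusted p = 0.0379), with the trend and robust variance (0.01743) and with array weights (0.04139). The other ubiquitous subunits, Cox4i1, Cox5b, Cox6b1 and Cox7b, overlapped between groups, with differences between -0.10 for Cox5b and 0.072 for Cox7b. Cox4i1, the largest nucleus-encoded subunit and the site where ATP slows the enzyme, differed by -0.0017 ± 0.095.

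Cox7a2l is related to Cox7a but serves as an assembly factor that joins complex III to complex IV in supercomplexes. Its values were 9.30, 9.26 and 9.06 against 9.47, 9.49 and 9.48. The groups were apart, with a difference of 0.27 ± 0.093 that was not called (limma adjusted p = 0.1006; 0.03662 with the trend and robust variance).

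Cox4i2, the form of Cox4 known from lung and responsive to oxygen, read 8.27, 8.28 and 7.88 in control hearts and 7.42, 7.74 and 8.12 in transgenic hearts. The values overlapped and spread widely within groups (SD 0.23 and 0.35), and the difference of -0.38 ± 0.18 was not called (limma adjusted p = 0.2265), and was -0.21 without transgenic 1. Cox4i2 is also known from pericytes, and the summed signal of 10 smooth muscle and pericyte markers was lower in transgenic hearts, at 13.34 to 13.51 against 13.86 to 13.99, with 4 of 10 called lower and 1 higher. The list did not move one way, with 8 genes below 0 and 2 above it. Cnn1, a contractile smooth muscle gene, rose by 1.41 (limma adjusted p = 0.0009673), while the smooth muscle actin Acta2 fell by 0.52 (0.02232; 0.08833 without transgenic 1 and 0.0701 without transgenic 3). Of pericyte markers, Rgs5 and Kcnj8 fell by 0.65 and 0.68 (limma adjusted p = 0.005811 and 0.008881), Rgs5 losing its call when its probes were averaged (0.07104). Pdgfrb, Notch3, Cspg4 and Abcc9 were named after their values were seen. In the main fit Pdgfrb fell by 0.38 and Notch3 differed by -0.26 without a call (limma adjusted p = 0.0307 and 0.161). Cspg4 and Abcc9 differed by 0.33 and -0.07 (limma adjusted p = 0.06064 and 0.6929). The part of these markers in the Cox4i2 values was not tested. The testis forms Cox6b2, Cox7b2 and Cox8c were not called, with control means of 5.51, 3.19 and 3.78. Cox6b2, at percentile 43.5 by mean signal, read 5.46, 5.52 and 5.55 against 5.58, 5.79 and 5.69. It is among the complex IV genes counted as wholly higher.

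In complex V, 1 of 17 genes rose and none fell (5.35% and 5.76% of all genes), 4 lay wholly lower and 4 wholly higher (23.5% each, against 16.7% and 14.2% of all genes), and the median difference was 0.047. Atp5o, the subunit that joins the peripheral stalk to the top of the catalytic head and is called OSCP after its role in oligomycin sensitivity, read 8.02, 8.15 and 7.88 in control hearts and 8.52, 8.47 and 8.43 in transgenic hearts. The groups were wholly apart, and Atp5o rose by 0.46 ± 0.096 (SE, limma adjusted p = 0.01819), a 1.37-fold higher level. The call ended when control 1 was left out (adjusted p = 0.05987), and likewise for transgenic 1 (0.07491) and transgenic 2 (0.06709). The other peripheral stalk genes Atp5pb, Atp5h and Atp5j overlapped between groups, with differences of 0.032, -0.096 and -0.072.

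The 5 genes of the catalytic head and central stalk, Atp5a1, Atp5b, Atp5c1, Atp5d and Atp5e, held no called gene, and 4 of them lay wholly lower in transgenic hearts, as did 16.7% of all genes. Atp5a1, the alpha subunit of the head, read 12.65, 12.63 and 12.70 against 12.51, 12.45 and 12.53, a difference of -0.16 ± 0.080 (limma adjusted p = 0.2532; 0.03063 with the trend and robust variance). Atp5b, the beta subunit that carries the catalytic sites, read 13.48, 13.50 and 13.45 against 13.43, 13.39 and 13.39, a difference of -0.073 ± 0.079 (limma adjusted p = 0.6262). The groups did not overlap for either gene, and for Atp5b the gap between them was smaller than the standard error.

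Atp5d and Atp5e, of the central stalk, differed by -0.11 ± 0.079 and -0.29 ± 0.12 (limma adjusted p = 0.4214 and 0.1647). A second Atp5d probe, not called either, lay on the other side of 0, at 0.18 ± 0.41 in a fit of every probe. Atp5c1, the gamma subunit that turns inside the head, overlapped between groups at 0.076.

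The 5 small membrane subunits, Atp5j2, Atp5k, Atp5l, Atp5md and Atp5mpl, which lie beside the proton channel and serve the pairing of ATP synthases along the cristae, all had differences above 0 and none was called. Atp5mpl read 10.76, 10.62 and 10.24 in control hearts and 11.13, 10.92 and 11.03 in transgenic hearts. Control 3 lay well below the other controls, and the groups did not overlap. The difference of 0.48 ± 0.14 missed the threshold (limma adjusted p = 0.05501) and passed it without control 1 (0.04665), without the dimmest genes (0.03765), after a new quantile normalization (0.04925) and with the trend and robust variance (0.01611). Atp5k, subunit e, lay wholly higher at 0.19 ± 0.10 (limma adjusted p = 0.289), and Atp5j2, Atp5l and Atp5md overlapped.

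The c ring, the part that rotates as protons pass, is encoded by Atp5g1, Atp5g2 and Atp5g3, whose differences were -0.096, 0.047 and 0.094 with limma adjusted p of 0.7004, 0.7761 and 0.5313. The mature c subunit is the same protein from all 3 genes. Atp5g3 alone of them lay wholly higher in transgenic hearts, at 11.59, 11.62 and 11.68 against 11.55, 11.56 and 11.50. The plot of the 8 called genes of all 4 complexes gives each array beside the control mean.

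**Figure D3:**
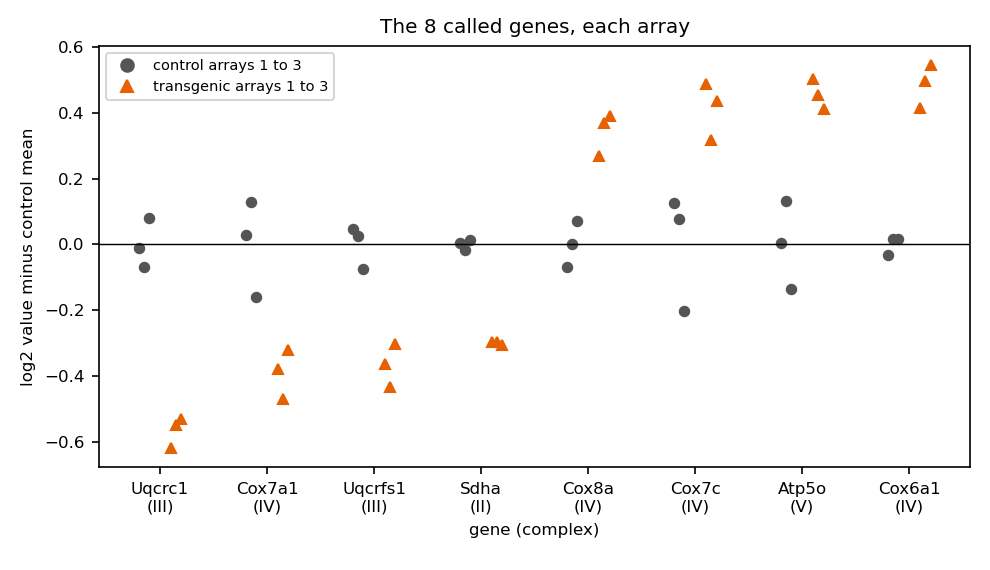
Log2 value of each array minus the control mean of that gene (y axis) for the 8 called genes, with control arrays as circles and transgenic arrays as triangles, in the order 1 to 3 from left to right. For every gene the 3 transgenic values lie on one side of the 3 control values, and those of Sdha are the closest together, with an SD of 0.0074.

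Genes that build or serve these complexes were read beside the subunits, against the same background of 5.76% lower and 5.35% higher. Of 34 assembly factors measured, 4 fell and 1 rose, with a median of -0.064. Taco1, which activates translation of the mitochondrial COX1 message, fell from 8.13, 8.21 and 8.09 to 7.62, 7.62 and 7.60, a difference of -0.53 ± 0.081 (limma adjusted p = 0.004724). Cox18, which helps insert COX2 into the inner membrane, fell by 0.68 ± 0.12 from 8.98, 9.23 and 9.26 to 8.32, 8.66 and 8.45 (limma adjusted p = 0.007864). In both genes the groups were wholly apart, and both kept their calls under all 14 alternatives, although with probes averaged Taco1 differed by only -0.31 (limma adjusted p = 0.04615).

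Bcs1l, the chaperone that places the Rieske protein Uqcrfs1 into complex III, fell by 0.67 ± 0.13 (limma adjusted p = 0.01257), from 8.79, 8.75 and 8.41 to 8.01, 7.81 and 8.12. Cmc2, a COX assembly factor, fell by 0.55 (limma adjusted p = 0.01458). Without control 1 or without transgenic 2 both calls were lost, with adjusted p of 0.05064 and 0.05498 for Bcs1l and of 0.05354 and 0.06477 for Cmc2. Cox17, the copper chaperone of COX, named here after its value was seen, rose by 0.47 (limma adjusted p = 0.04667). The Cox17 call was lost without any 1 array other than control 1, with adjusted p between 0.06467 without control 3 and 0.1411 without transgenic 1, and with centred arrays (0.07763) or array weights (0.05412).

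Of 14 carriers and further subunits, 3 fell (21.4%) and none rose. All 3 act on coenzyme Q, which links complex II to complex III. The list was chosen with earlier results known and holds several coenzyme Q genes, so this shared trait follows in part from the choice. Coq9, needed for coenzyme Q synthesis, read 10.22, 10.07 and 10.05 against 9.39, 9.47 and 9.53 and fell by 0.65 ± 0.089 (limma adjusted p = 0.00291). Coq10a and Coq10b, which bind coenzyme Q and help it work in the chain, fell by 0.61 and 0.88 (limma adjusted p = 0.00291 and 0.006231). Coq10b read 8.93, 8.72 and 8.63 against 7.93, 7.59 and 8.12, with no overlap, and all 3 genes kept their calls under all 14 alternatives. Etfdh, which feeds electrons from fatty acid oxidation into coenzyme Q, differed by -0.28 ± 0.084 (limma adjusted p = 0.06465). Coq7, another coenzyme Q gene of the list, named after its value was seen, differed by -0.20 ± 0.086 and was not called (limma adjusted p = 0.1776).

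Subunits encoded in mitochondrial DNA were measured for complexes III and IV, and are named because they belong to these enzymes. COX1, the catalytic core of complex IV, read 13.63, 13.55 and 13.57 in control hearts and 13.68, 13.63 and 13.59 in transgenic hearts. The groups overlapped, with a difference of 0.050 ± 0.081 (limma adjusted p = 0.7604). COX3 and CYTB, the cytochrome b of complex III, also overlapped and differed by 0.012 and 0.015 (limma adjusted p = 0.9516 and 0.9386), with signs that turned when arrays were centred or normalized by quantiles again. These probes are among the brightest, within 1 log2 unit of the highest value on any array, 14.05, and whether the signal is near its ceiling there was not tested. Atp5b, Atp5md, Uqcrb and Cox6a1 came as close on some or all arrays, with highest values of 13.50, 13.37, 13.19 and 13.09. A ceiling was not tested for them either.

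Among 24 mitochondrial genes outside the chain, 3 fell and 1 rose, with a median of -0.083. Tufm, the mitochondrial translation elongation factor, fell by 0.77 ± 0.084, from 10.97, 10.88 and 10.98 to 10.11, 10.21 and 10.20 (limma adjusted p = 0.001052). Mfn2, which fuses mitochondria and tethers them to the reticulum, fell by 0.69 ± 0.082, from 11.08, 11.12 and 11.21 to 10.45, 10.46 and 10.44 (limma adjusted p = 0.001637). Both lay wholly apart and kept their calls under all 14 alternatives, and with probes averaged Tufm differed by -0.47 (limma adjusted p = 0.01197). Immt, which shapes the cristae where these complexes sit, fell by 0.34 (limma adjusted p = 0.03048), and Tomm20, a receptor of the import pore, rose by 0.37 (0.0375). Any 1 array left out cost both calls, with adjusted p of 0.05611 to 0.1166 for Immt and of 0.07192 to 0.1205 for Tomm20.

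Of 15 regulators of mitochondrial genes, 3 fell and 1 rose, with a median of -0.055. Esrrb, an estrogen-related receptor that binds the ERR letters searched for above, fell from 5.72, 5.58 and 5.62 to 5.13, 5.16 and 5.13, by 0.50 ± 0.083 (limma adjusted p = 0.006906), and kept its call under all 14 alternatives. Its probe is dim, at percentile 39.6 of the array signal of all genes. Further regulators were named after their values were seen. Esrra and Esrrg, the brighter relatives of Esrrb, differed by -0.21 and 0.18 (limma adjusted p = 0.1595 and 0.218). Gabpa, of the NRF2 (GABP) factor, and Ppargc1a differed by 0.22 and -0.28 (limma adjusted p = 0.185 and 0.1712). Ppara, the receptor that drives fatty acid oxidation genes, and Tfb1m, which modifies mitochondrial ribosomal RNA, fell by 0.43 and 0.38 (limma adjusted p = 0.04249 and 0.04749), and Ppargc1b, a coactivator of respiratory genes, rose by 0.41 (0.03931). Each of these 3 calls was lost without control 1 or 2 or without transgenic 1 or 2, that of Ppara also without control 3, and those of Tfb1m and Ppargc1b also without transgenic 3. Over these arrays, left out in turn, adjusted p ran from 0.06662 to 0.1479 for Ppara, from 0.09752 to 0.1637 for Tfb1m and from 0.07698 to 0.1397 for Ppargc1b. The plot of the gene lists sets the complexes beside these groups.

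**Figure D4:**
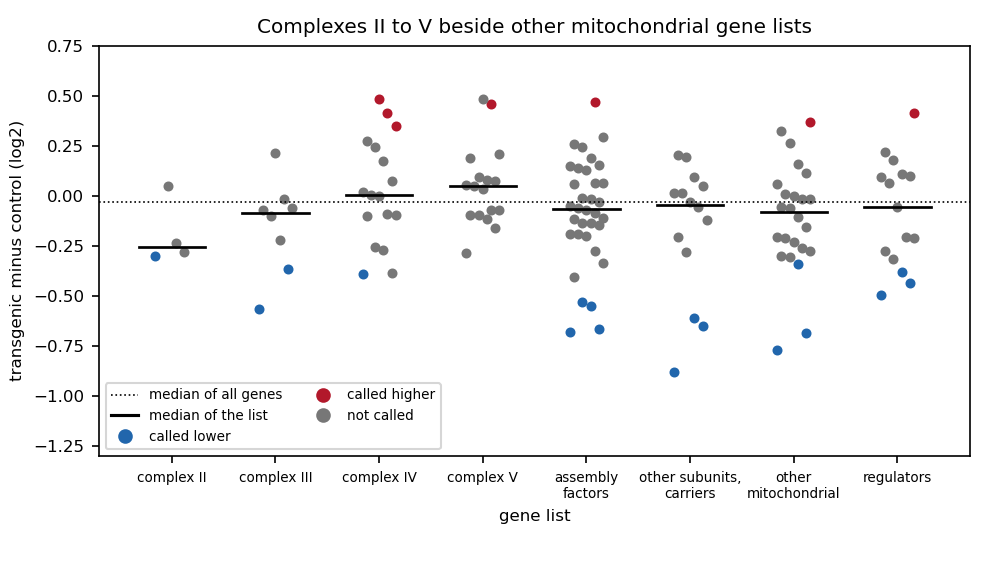
Difference between transgenic and control hearts (log2, y axis) for the genes of each complex and of 4 other lists, 1 point per gene, with called genes coloured and a line at each median. Medians run from -0.26 in complex II to 0.047 in complex V, and the dotted line is the median of all genes at -0.031.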

How the data were processed

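Each of 6 mouse heart samples, 3 control and 3 transgenic, had 1 Affymetrix array. Per the labels' protocols, cDNA from 100 ng of total RNA, primed with poly(T), was transcribed in vitro and biotinylated. The authors deposited log2 values, 1 per probe and array. Oligo, RMA and limma appear in the submitters' processing notes, without versions. Beyond the name RMA, the sources used here describe no background correction, and they give no probe filter. Of 41345 probes, 23521 carry 1 gene symbol in the platform annotation, 1814 several and 16010 none. Only the first kind was used, which gave 22180 genes. All 46 symbols of complexes II to V were found in RefSeq.

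Transgenic and control arrays were compared in limma 3.58.1 (R 4.3.3) by lmFit and eBayes without covariates, which leaves 4 residual degrees of freedom, with Benjamini-Hochberg adjustment over all 22180 genes and a threshold of 0.05. A gene is called, and is said to rise or fall, when its adjusted p is at or under that threshold. Isoform pairs were compared with an exact permutation test over the 20 regroupings of 6 arrays. The steps were tested on simulated data. The members, gene lists, marker lists and tests were chosen with earlier results of these data known. Any member could be named. Of each other list, up to 4 genes by smallest p were named, along with the genes of the microRNA cluster, and exceptions are stated. Promoter windows are from RefSeq, build GRCm38.p6, and the build of the array annotation is not stated in the sources. The alternatives were a filter on the dimmest genes (a share of 0.333), the mean of a gene's probes, a new quantile normalization, centring of arrays on their medians, an intensity trend with robust variance, array weights, a block for the replicate number, a threshold of 0.01, and fits without each array. A fit of every probe was added after seeing the data. The number of arrays limits the precision.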

Additional observations from a re-analysis of the deposited data

How the results depend on the processing

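The 8 called genes of complexes II to V kept their direction under all 14 alternatives, and the 3 isoform differences kept theirs under every alternative run on them, from -0.6149 to -0.5519 for Cox6a2 minus Cox6a1, from -0.6777 to -0.5819 for Cox7a1 minus Cox7a2 and from -0.7003 to -0.534 for Cox8b minus Cox8a with 1 array left out. With an array left out no sign could turn, since the groups of these genes and pairs do not overlap. Averaged probes and the replicate block could not move the isoform changes, as each isoform gene has 1 probe and the block is balanced. The counts of calls moved more, and unless a cause is given it was not tested. With the intensity trend and robust variance, 10 members were called lower and 7 higher (21.7% and 15.2%), against 7.16% and 7.12% of all genes. The lower calls included 3 in complex II, 3 in complex IV and 1 in complex V. Complex IV had 2 lower calls after a new quantile normalization, where 8.07% of all genes were called lower. It had 3 with array weights, where 1677 genes were called lower. With centred arrays 2 members were called higher (4.35%, against 4.03% of all genes). At an adjusted p of 0.01, a stricter threshold by construction, 497 genes were called lower and 446 higher, of them 1 member each way, with 0 lower in complex II, 1 in complex III and 0 in complex IV. With 1 array left out, and so fewer samples, 602 to 1279 genes were called lower and 569 to 970 higher, with 1 to 3 members lower, 1 to 3 higher, 0 to 0 lower in complex II, 1 to 2 in complex III and 0 to 1 in complex IV. With the replicate block, 1 member was called lower and 2 higher (2.17% and 4.35%), against 4.5% of all genes each way. The lower calls were 0 in complex II, 1 in complex III and 0 in complex IV. The isoform changes with the block were -0.58, -0.635 and -0.60 (exact sign-flip p = 0.25, the smallest 3 pairs allow). The titles of samples of the same number share only that number, and whether such samples were paired cannot be told. Their deviations correlated at 0.0163, -0.13 and 0.0138, and 0 of 3 controls correlated best with their own number.

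Of the 38 uncalled members, 9 were called under some alternative and 11 changed sign under some. After a new quantile normalization Sdhd stood at -0.01614, Cox4i1 at 0.03223, COX3 at -0.006942 and CYTB at -0.002129. With centred arrays Cox8c stood at -0.01903, Cox6b1 at -0.03284, Atp5pb at -0.004419, COX3 at -0.02435 and CYTB at -0.02162, and with array weights Cox6b1 stood at -0.05555, Atp5pb at -0.003993 and COX3 at -0.01068. Atp5d stood at 0.03408 with its probes averaged and at 0.1828 by its other probe, and Atp5h at 0.09233 by its other probe. With 1 array left out, the ranges that crossed 0 were -0.09953 to 0.03847 for Uqcrb, -0.2195 to 0.05419 for Cox7b2, -0.04984 to 0.08653 for Cox8c, -0.08209 to 0.06123 for Cox6b1, -0.06229 to 0.04769 for Cox4i1, -0.226 to 0.01538 for Atp5g1, -0.02603 to 0.1026 for Atp5l and -0.02984 to 0.06595 for Atp5pb. The mitochondrial probes crossed too, from -0.01156 to 0.03924 for COX3 and from -0.01239 to 0.03232 for CYTB. Differences of this size are below what 3 arrays a group can place on either side of 0. No detection calls were used here, and signal shared with pseudogenes or close copies of these genes was not tested.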
